A study of Homo sapiens with 6 samples.

Results

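SKOV-3 cells that had been transfected with miR-135a-3p were compared with SKOV-3 cells that had been transfected with miR-blank, the control. SKOV-3 is an established human ovarian cancer cell line. Each transfection gave 1 array, so the comparison is the log2 signal after miR-135a-3p minus the log2 signal after miR-blank for each gene. A gene was represented by its probe set with the highest mean over all arrays and was kept if its log2 signal was at least 5 on 1 or both of the SKOV-3 arrays. This left 8973 of the 14884 genes named on the array, 8189 of them protein-coding. The same study treated 2 other ovarian cancer lines, ES-2 and OVCAR-3, in the same way, and 8831 and 8624 genes passed the same filter on their own pairs of arrays. With 1 array a side no difference in SKOV-3 has a test or a replicate error. The ES-2 and OVCAR-3 pairs show how far arrays of a line lay apart elsewhere in the study, but they hold the response to the microRNA as well as scatter. The labels name no other treatment for any of the 6 arrays. The sources used here do not say if a synthetic RNA or a vector was delivered, at which dose, or when the cells were harvested.

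MicroRNAs are short RNAs that guide Argonaute proteins to messenger RNAs. Pairing rests mainly on the seed, bases 2 to 8 from the 5′ end, and a paired messenger RNA is usually destabilised or translated less. A hairpin precursor yields a mature RNA from each arm. For miR-135a the 5p arm is the better studied guide, and miR-135a-3p is the RNA from the opposite arm of the MIR135A1 hairpin. Transcripts can therefore be lower after transfection as direct targets, or higher or lower further downstream, and an array does not tell these apart.

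The mature RNAs of the family are shown because the arms differ in their seeds. Sequences are from RefSeq on GRCh38.p14, written 5′ to 3′ with the seed in capitals.
hsa-miR-135a-3p: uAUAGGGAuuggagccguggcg
hsa-miR-135a-2-3p: aUGUAGGGauggaagccaugaa
hsa-miR-135b-3p: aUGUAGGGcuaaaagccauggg
hsa-miR-135a-5p: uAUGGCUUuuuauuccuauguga
hsa-miR-135b-5p: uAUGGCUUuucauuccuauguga
The 5p arms of MIR135A1 and MIR135B share the seed AUGGCUU. The 3p arms of MIR135A2 and MIR135B share UGUAGGG, whereas miR-135a-3p has AUAGGGA. It was the 1 RNA with this seed among 2370 mature human microRNAs in the table. Mature miR-135a-3p covers bases 56 to 77 of the 90-base MIR135A1 hairpin and lies at chr3:52294232-52294253 on the minus strand.

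The hairpin gene of the transfected microRNA was bright in SKOV-3 after miR-135a-3p. Its probe set is named for the hairpin gene, so the signal does not tell the 3p arm from the 5p arm or the precursor. The MIR135A1 probe set read 2.07 in the miR-blank cells and 11.58 in the miR-135a-3p cells, a log2 difference of 9.52. The same difference was 10.82 in ES-2 and 9.94 in OVCAR-3. The other hairpin genes of the family stayed under 5 on both SKOV-3 arrays. MIR135A2 read 1.62 and 1.81, and MIR135B read 2.95 and 3.56. The MIR135A1 value after miR-blank lies at the floor of the array, so its fold is not a measure of copy number.

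The SKOV-3 label was checked against genes that mark the line. PAX8, a factor that marks cells of Mullerian origin, read 8.80 with miR-blank and 8.12 with miR-135a-3p, against 4.12 to 4.80 on the other 4 arrays. SKOV-3 carries an amplified ERBB2 locus. ERBB2 itself was not analysed here, but its neighbour PGAP3 read 8.37 and 7.79 in SKOV-3 against 4.72 to 5.50 elsewhere, and STARD3 read 9.36 and 9.69 against 7.53 to 7.74. MIEN1 read 9.34 and 9.21 against 7.57 to 8.47. GRB7, a further neighbour, read 4.65 and 4.89 and did not stand apart from the 4.28 to 4.53 of the other arrays. Over the 8973 genes the SKOV-3 arrays correlated with each other at 0.940 and with the arrays of the other lines at 0.804 to 0.854. Both arrays thus carried the markers of one line. Markers of other cell types were near or under the array median, which was 4.20 with miR-blank and 4.16 with miR-135a-3p. The 6 named of 15 leukocyte markers read 2.82 to 5.17 and 2.35 to 5.87, the higher end being TYROBP. The 6 named of 10 fibroblast markers read 2.28 to 4.32 and 2.22 to 4.45. The 9 named of 10 endothelial markers read 2.20 to 6.11 and 2.11 to 5.98, with ESAM, the highest of them, at 5.98 to 7.10 on all 6 arrays.

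Of the 8973 genes, 241 had at least 2-fold higher signal after miR-135a-3p in SKOV-3 (2.69%) and 196 had at least 2-fold lower signal (2.18%). At least 4-fold in either direction there were 63 genes (0.702%). The median log2 difference over all genes was 0.02, so most genes were centred near 0. In ES-2, 20 genes were at least 2-fold higher (0.226%), 64 lower (0.725%) and 15 past 4-fold (0.17%). In OVCAR-3, 32 genes were higher (0.371%), 30 lower (0.348%) and 7 past 4-fold (0.0812%). The SKOV-3 pair therefore lay further apart than either other pair. Over genes, the difference had an SD of 0.51 in SKOV-3, 0.32 in ES-2 and 0.30 in OVCAR-3. The signals of the pair correlated at 0.940 in SKOV-3, 0.976 in ES-2 and 0.979 in OVCAR-3. No replicate shows how much of the wider spread belongs to the microRNA, and its source was not tested.

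**Figure D1:**
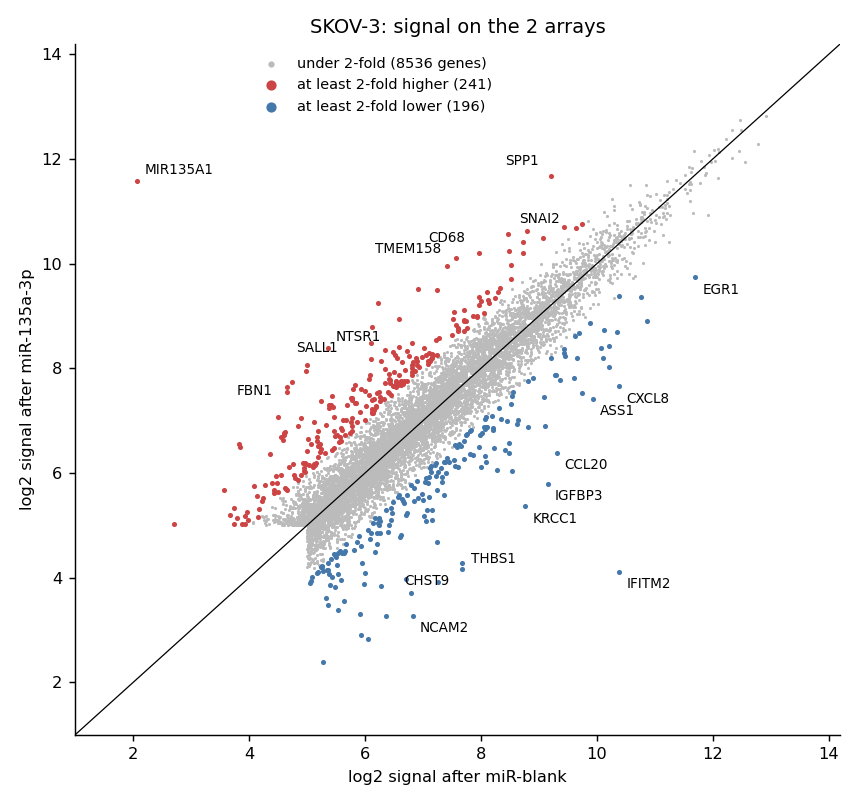
Log2 signal in SKOV-3 with miR-blank (x axis) and with miR-135a-3p (y axis), 1 point per gene for the 8973 genes passing the filter, with the line of equal signal. The 241 genes at least 2-fold higher and the 196 at least 2-fold lower lie on both sides of the line over most of the signal range, with MIR135A1 and IFITM2 farthest from it.

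Among genes with a mean log2 signal under 5, 14% were past 2-fold in SKOV-3, 7.85% in ES-2 and 6.01% in OVCAR-3. At 7 to 8 the shares were 5.69%, 0.383% and 0.502%, and at 9 and over they were 3.01%, 0% and 0.441%. SKOV-3 thus had the highest share in bright as in dim bins. Signals under 5 still entered the counts. After miR-blank, 58 of the 241 higher genes read under 5, and after miR-135a-3p, 64 of the 196 lower genes did.

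**Figure D2:**
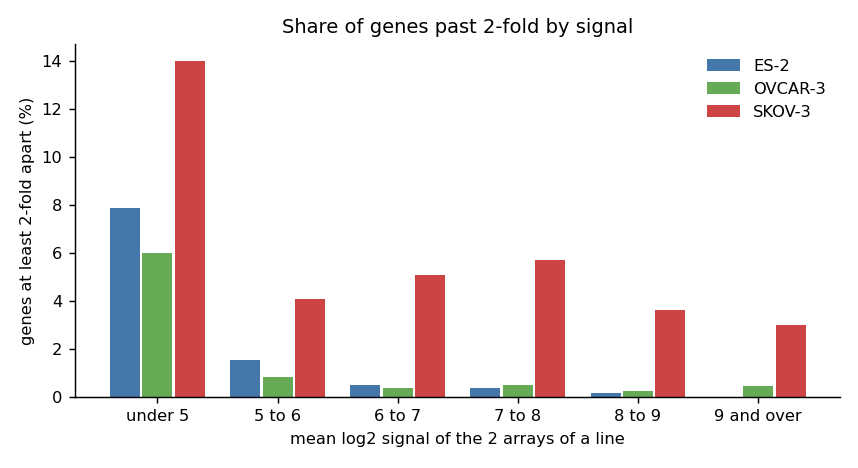
Percent of genes at least 2-fold apart between the arrays of a line (y axis) in bins of the mean log2 signal of that line's arrays (x axis), with 1 bar per line. SKOV-3 lies above both other lines in every bin, at 14% under 5 and 3.01% at 9 and over.

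The medians of the genes past 2-fold in SKOV-3 lay near 0 in the other lines. Of the 241 higher genes, with a median log2 difference of 1.27, 189 passed the filter in ES-2 with a median of −0.11, and 151 in OVCAR-3 with a median of −0.11. In ES-2, 1 of the 189 was past 2-fold higher (0.529%, against 0.226% of all genes) and 3 lower (1.59%, against 0.725%). The 1 higher gene was MIR135A1. In OVCAR-3, 7 of the 151 were higher (4.64%, against 0.371%) and 5 lower (3.31%, against 0.348%). The 7 were MIR135A1 and 6 near-identical GAGE genes. Of the 196 lower genes, with a median of −1.31, 129 passed in ES-2 with a median of −0.03 and 118 in OVCAR-3 with a median of 0.05. In ES-2, 9 of the 129 were past 2-fold lower (6.98%, against 0.725%) and 4 higher (3.10%, against 0.226%). In OVCAR-3, 0 of the 118 were lower (against 0.348%) and 3 higher (2.54%, against 0.371%). Apart from the 0, each share was above that of all genes of the line. On the shared higher side these genes were MIR135A1, the hairpin gene of the transfected microRNA, and the near-identical GAGE copies alone. No other gene that passed was at least 2-fold higher in SKOV-3 and in another line. The difference between the lines was not tested.

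The lowest protein-coding gene was IFITM2, an interferon-induced membrane protein that restricts virus entry. In SKOV-3, IFITM2 read 10.39 with miR-blank and 4.12 with miR-135a-3p, a log2 difference of −6.28. It went from a bright signal to below the array median, so 77.5-fold includes the floor of the array. In ES-2 it read 10.44 and 9.76, and in OVCAR-3 it was near the floor on both arrays at 3.90 and 3.94. Its relatives did not share this size in SKOV-3. IFITM3 differed by −0.54 and IFITM1 by −0.07, at 6.23 or more on both arrays. IFITM10 differed by 0.21. Relatives were lower in ES-2 too, where IFITM3 read 6.12 and 4.62, a difference of −1.51, and IFITM1 differed by −0.69. The 4 passing genes of the family had a median of −0.31 in SKOV-3, −0.69 in ES-2 and 0.03 in OVCAR-3. These genes have close paralogs, so the probe sets may share signal, and the values are uncertain. IFITM4P, a transcribed pseudogene of the family, differed by −1.43, and its other 5 probe sets by −1.43 to −1.25.

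The other genes at the low end belonged to several classes. Matrix and secreted proteins included THBS1, thrombospondin 1, an adhesive matrix protein that read 7.68 and 4.29, a difference of −3.39. LUM, the proteoglycan lumican, read 6.05 and 2.84, a difference of −3.22. IGFBP3, a carrier of insulin-like growth factors, read 9.15 and 5.80, a difference of −3.36. These 3 genes were dimmer in SKOV-3 after miR-135a-3p by over 9-fold each. In ES-2 they differed by 0.06, −0.07 and 0.05, and in OVCAR-3 by 0.74, 0.63 and 0.48, with LUM below the array median on all 4 of those arrays.

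Membrane proteins and enzymes were also at the low end. NCAM2, a neural cell adhesion molecule, read 6.82 and 3.27, a difference of −3.56. NCAM2 was as low in ES-2, where it read 7.09 and 3.56, a difference of −3.53, and it was near the floor in OVCAR-3 at 3.27 and 3.21. It was the 1 gene among the 20 lowest in SKOV-3 that was past 2-fold in another line. CHST9, a sulphotransferase, read 7.67 and 4.17, and TKTL1, a transketolase-like protein, read 7.26 and 3.91. KRCC1 read 8.77 and 5.36, and ASS1, argininosuccinate synthase, read 9.94 and 7.42. HAVCR1, KYNU, PDZK1, CD36, RASEF and PCDH7 differed by −3.08 to −2.42. They read 5.28 to 6.79 after miR-blank and under the array median after miR-135a-3p. In all, 10 of the 20 lowest genes were below the array median after miR-135a-3p, so their sizes depend on the floor.

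At the high end the 20 protein-coding genes differed by 2.11 to 3.08, which is 4.33-fold to 8.45-fold. SALL1, a zinc finger transcription factor of kidney and limb development, read 5.0 with miR-blank and 8.08 with miR-135a-3p. NTSR1, the receptor of the peptide neurotensin, read 5.36 and 8.40, and GRPR, the receptor of gastrin-releasing peptide, read 4.66 and 7.65. A second GRPR probe set differed by 3.34. FBN1, which forms the microfibrils of elastic tissue, read 4.66 and 7.55. ACTL8 and SAGE1, genes of the testis that tumours can express, read 4.74 and 7.74, and 4.50 and 7.08. Most of these genes were near the array median after miR-blank.

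Other genes at the high end were well above the array median on both arrays. SPP1, the secreted phosphoprotein osteopontin, read 9.21 and 11.68, a difference of 2.48. STC1, the hormone stanniocalcin 1, read 7.41 and 9.96. TMEM158, a transcript known to be induced by Ras, read 7.58 and 10.11. CD68, a lysosomal glycoprotein, read 7.96 and 10.20, and GLIPR1 read 7.25 and 9.49. HOXB2 read 6.58 and 8.94. A few more were dim after miR-blank. CD274, which encodes the checkpoint ligand PD-L1, read 4.61 and 6.77. EPHX4, FRRS1, GEM, HOXB4 and PCDHB4 differed by 2.11 to 2.16, MMP1 by 2.33 and SPATA4 by 2.74. Of the 20 highest genes, 3 were below the array median after miR-blank, 2 were past 2-fold in ES-2 and 1 in OVCAR-3. Those were SPP1, with −1.73, and SAGE1, with −1.01, in ES-2, and STC1, with −1.58, in OVCAR-3, all opposite in sign to SKOV-3. SAGE1 was below the array median on both ES-2 arrays.

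At the threshold itself the higher side held HEMK2 and WT1, both at 1.0, with NDUFAF8 at 0.997 and HMGN3-AS1 at 0.995 outside. The lower side held PPARG and ZNF418 at −1.0, with IER3 at −0.999 and HMBOX1 at −0.996 outside. Genes on the 2 sides of the threshold thus hardly differed.

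Immediate early transcription factors are switched on within minutes of growth factor or stress signals. Their AP-1 members, FOS and JUN proteins, and EGR1 bind the promoters of later genes. A list can hold genes that passed on 1 array alone, and such a gene had to differ between the arrays. The 12 passing AP-1 and EGR factors had a median log2 difference of −1.22 in SKOV-3, against 0.02 over all genes. Of the 12, 6 were at least 2-fold lower and 1 higher, against backgrounds of 2.18% and 2.69%, and all 7 read at least 5 on both arrays. The same 12 genes had medians of −0.02 in ES-2 and −0.22 in OVCAR-3.

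FOSB read 8.53 with miR-blank and 6.04 with miR-135a-3p, a difference of −2.49, but its second probe set differed by −0.98. EGR1 read 11.70 and 9.74, a difference of −1.96, with −2.27 on its second probe set. FOS read 8.49 and 6.58, a difference of −1.91, with −1.68 on its second probe set. EGR1 was also lower in ES-2, by −0.62, and in OVCAR-3, by −0.90. JUNB, ATF3 and FOSL2 differed by −1.65, −1.56 and −1.50, while JUND and JUN, at −0.93 and −0.90, stayed short of 2-fold. FOSL1 went the other way. This AP-1 factor, known to accumulate under sustained ERK signalling, read 8.74 and 10.42, a difference of 1.68.

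The 11 other immediate early genes had a median of −0.61, with 0 past 2-fold in either direction and 8 below 0. Over all genes, 4298 of 8973 were below 0. Their largest differences were −0.999 for IER3, a survival factor, −0.79 for KLF6 and −0.71 for KLF10, both zinc finger factors. The medians of these genes were −0.07 in ES-2 and −0.09 in OVCAR-3.

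The kinase ERK induces its own antagonists, dual-specificity phosphatases and Sprouty proteins, together with ETV factors. The 13 passing genes of this group had a median of 0.92 in SKOV-3, 0.02 in ES-2 and −0.23 in OVCAR-3. In SKOV-3, 6 were at least 2-fold higher and 1 was lower, against 2.69% and 2.18% of all genes, and all 7 read at least 5 on both arrays. DUSP6, the phosphatase of ERK itself, read 5.79 and 7.61, a difference of 1.81. ETV4 read 6.0 and 7.57, DUSP4 read 5.59 and 6.86, and DUSP7 read 6.81 and 8.02. CCND1, which encodes cyclin D1, read 7.93 and 9.0, and SPRY4 read 5.43 and 6.45. The exception was DUSP1, an immediate early phosphatase, which read 10.86 and 8.90, a difference of −1.96. DUSP1 thus lay on the same side as FOS and EGR1, and DUSP6, ETV4 and SPRY4 on the side of FOSL1. The ligand HBEGF differed by 0.79, and the receptor EGFR by −0.58. The 8 ERBB receptors, ligands and regulators that passed had a median of 0.12 with 0 past 2-fold.

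**Figure D3:**
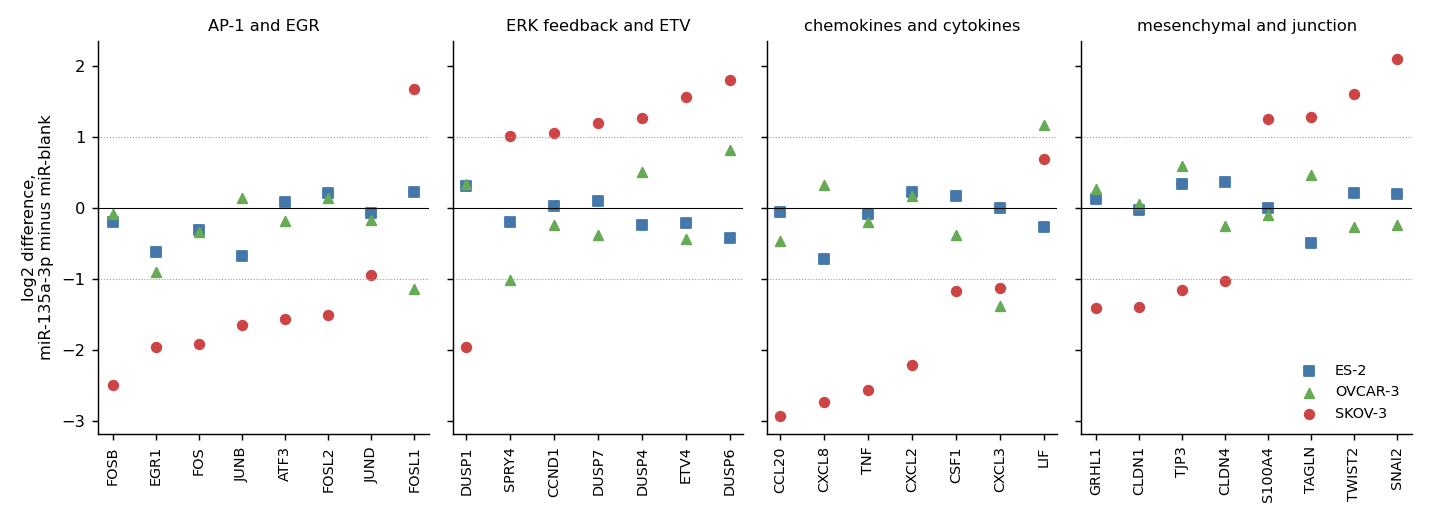
Log2 difference, miR-135a-3p minus miR-blank (y axis), of single genes (x axis) in ES-2 (squares), OVCAR-3 (triangles) and SKOV-3 (circles), 1 pair of arrays per point, with dotted lines at 2-fold. FOSB, EGR1, CCL20 and CXCL8 lie at −2.92 to −1.96 in SKOV-3 and at −0.90 to 0.32 in the other lines, and DUSP6, FOSL1 and SNAI2 lie at 1.68 to 2.10 in SKOV-3.

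Chemokines draw leukocytes into tissue, and many are controlled by NF-kappaB and AP-1. Among 15 passing chemokines and cytokines, 6 were at least 2-fold lower and 1 was higher in SKOV-3, against 2.18% and 2.69% of all genes. At 5 or more on both arrays these were 5 and 0 of 13. The median was −0.26, and the other 8 genes differed by −0.45 to 0.69. CCL20, a ligand for CCR6, read 9.31 and 6.39, a difference of −2.92. CXCL8, interleukin 8, read 10.39 and 7.66, a difference of −2.74. TNF read 7.25 and 4.68, a difference of −2.57, and CXCL2 read 9.74 and 7.53, a difference of −2.21. CSF1 and CXCL3 differed by −1.16 and −1.12. In OVCAR-3, CXCL3 differed by −1.38, but it read 4.85 and 3.47 there and did not pass the filter. IL7 differed by 1.25 but came up from 4.44. In ES-2, CXCL8 read 8.94 and 8.23, and in OVCAR-3 it read 3.21 and 3.53, near the floor. CCL20 and TNF were at 4.70 or under on all arrays of the other lines, so those pairs say little about these 2 genes. A single separate TNF probe set differed by −2.37, and 6 more held values identical to the first.

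Of 19 listed classical NF-kappaB genes, 11 were named on the array, so the list is incomplete. The 10 that passed, subunit genes among them, differed less than the chemokines. Their median was −0.08, with 1 at least 2-fold lower (background 2.18%). This was BCL3, an atypical inhibitor protein, which read 7.99 and 6.72. ICAM1, an adhesion receptor, differed by −0.81, and the subunit genes NFKB1, RELA, NFKB2 and RELB by −0.00 to 0.12. The fifth subunit gene, REL, read 8.63 and 8.08, a difference of −0.55. TRAF1, TNIP1 and BIRC2 differed by −0.36, −0.16 and 0.18.

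Upstream sequences of 2 chemokine genes and of EGR1 are shown because these genes were at least 2-fold lower and are textbook examples of control by NF-kappaB, AP-1 and serum response factor. Each is the 250 bases before the transcription start, from RefSeq on GRCh38.p14, 5′ to 3′ on the strand of the gene. Capitals mark matches to 3 motifs: a kappaB core, GGAATTTCC, and the AP-1 motif TGANTCA in the chemokines, and the CArG box of serum response factor in EGR1.
CXCL8, chr4:73740319-73740568, plus strand: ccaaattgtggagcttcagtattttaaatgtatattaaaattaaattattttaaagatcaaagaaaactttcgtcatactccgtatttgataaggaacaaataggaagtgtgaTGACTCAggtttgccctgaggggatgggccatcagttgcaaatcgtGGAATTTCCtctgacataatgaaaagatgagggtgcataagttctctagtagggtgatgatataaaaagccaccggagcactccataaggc
CXCL2, chr4:74099196-74099445, minus strand: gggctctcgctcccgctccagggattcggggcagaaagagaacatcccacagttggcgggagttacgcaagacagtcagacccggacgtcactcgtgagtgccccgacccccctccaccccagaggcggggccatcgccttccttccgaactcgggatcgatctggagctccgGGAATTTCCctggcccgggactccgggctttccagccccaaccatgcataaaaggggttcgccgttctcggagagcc
EGR1, chr5:138465229-138465478, plus strand: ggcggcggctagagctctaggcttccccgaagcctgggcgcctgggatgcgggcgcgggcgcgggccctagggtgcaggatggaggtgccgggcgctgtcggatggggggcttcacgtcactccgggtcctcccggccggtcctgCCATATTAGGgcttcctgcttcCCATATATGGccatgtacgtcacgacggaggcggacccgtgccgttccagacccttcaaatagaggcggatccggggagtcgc
The kappaB core lies 91 to 83 bases before the start of CXCL8 and 77 to 69 bases before that of CXCL2, and the AP-1 match of CXCL8 lies 137 to 131 bases before it. EGR1 has CArG boxes at 105 to 96 and 83 to 74 bases. Searched on both strands, the kappaB core was in 0.429% of 27303 promoters and in 3 of the 7 promoters of passing chemokines and cytokines that the table held. It was in 0.353% of the 7073 promoters of passing genes. Among genes past 2-fold it was in 3 of 159 promoters of lower genes and 2 of 181 of higher genes. A more common kappaB motif was in 34% of promoters of lower genes, 33.7% of higher genes and 34.7% of passing genes. AP-1 matches were in 6.6% and CArG boxes in 1.14% of all promoters. The letters of the kappaB core were chosen after the windows were seen, so the share among chemokines is a description. A match does not show binding.

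Interferon-stimulated genes encode antiviral proteins. The 19 that passed had a median of −0.06 in SKOV-3, with 3 at least 2-fold lower and 0 higher (backgrounds 2.18% and 2.69%). At 5 or more on both arrays these were 1 and 0 of 17. IRF1, a transcription factor of this response, read 7.10 and 5.92. The antiviral genes IFIT2 and IFIT1 read 5.65 and 4.51, and 5.18 and 4.09, both from dim signals. Both passed through the miR-blank array alone and so had to be lower. OASL differed by −0.99, whereas ISG15, BST2 and USP18 differed by −0.18 to −0.01. Most of the list thus lay near 0 while IFITM2 did not. The interferon response element was in 8 of 16 promoters of this list, 50%, against 3.07% of all promoters.

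Of the complement and acute phase genes, 4 passed, with a median of −1.45, and 3 were at least 2-fold lower (background 2.18%). Without the filter, which adds genes under 5 on both arrays, the median was −0.452 over 10 genes. C3, the central complement protein, read 8.29 and 6.05, a difference of −2.24. CFB, factor B of the alternative pathway, read 7.07 and 5.30, and LCN2, an iron-scavenging lipocalin, read 6.25 and 5.12. In the other lines the same genes had medians of −0.08 and 0.07, and C3 there read 4.43 to 4.71.

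**Figure D4:**
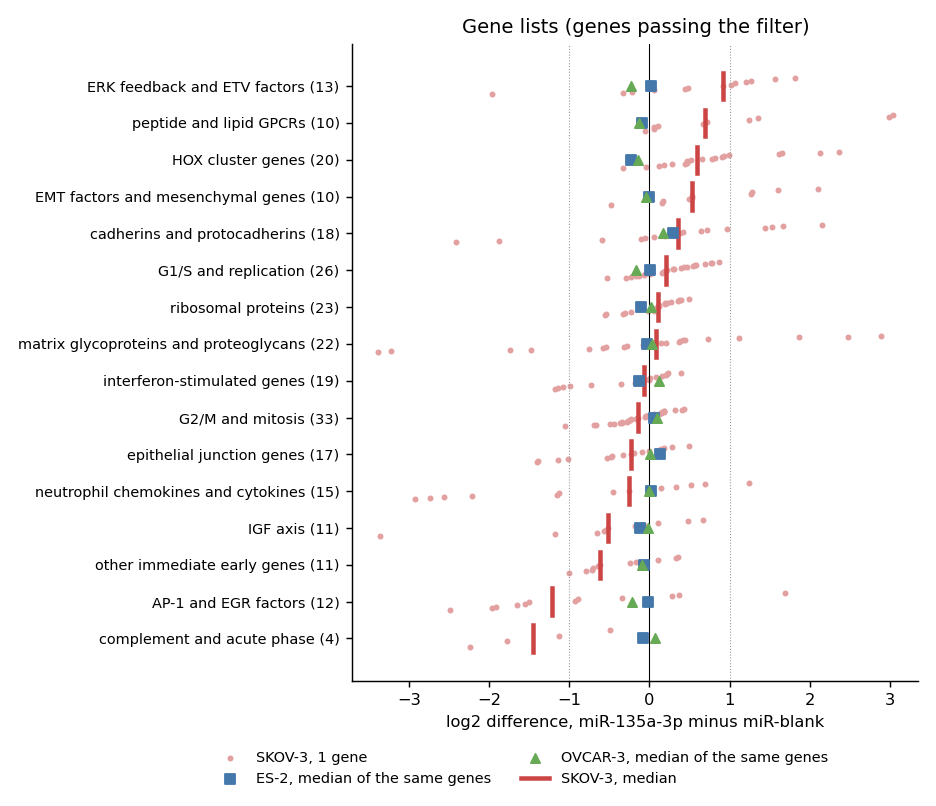
Log2 difference in SKOV-3 (x axis) of every passing gene in 16 lists, 1 pale point per gene, with the SKOV-3 median as a red bar and the ES-2 and OVCAR-3 medians of the same genes as squares and triangles. The number of genes is in parentheses, and dotted lines mark 2-fold. SKOV-3 medians run from −1.45 for complement genes to 0.92 for ERK feedback genes, and both other lines stay between −0.23 and 0.29.

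Extracellular matrix genes differed in both directions. Of 22 passing glycoproteins and proteoglycans, 4 were at least 2-fold higher and 4 lower (backgrounds 2.69% and 2.18%), with a median of 0.08. At 5 or more on both arrays these were 3 and 2 of 18. FBN1, THBS1 and LUM passed on 1 array alone. On the lower side, after THBS1 and LUM, were the proteoglycan BGN, at −1.74, and the fibulin EFEMP1, at −1.48. On the higher side, after FBN1 and SPP1, were the basement membrane protein NID2, which read 6.28 and 8.14, and ECM1, at 1.11. BGN also differed by −1.39 in ES-2. Collagens, laminins and integrins were not analysed here.

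Of the proteases and their inhibitors, 3 of 10 were at least 2-fold higher and 1 lower (backgrounds 2.69% and 2.18%). At 5 or more on both arrays these were 2 and 0 of 8, as MMP1 and ADAM12 each passed on 1 array alone. TIMP1, an inhibitor of matrix metalloproteinases, read 9.43 and 10.71, a difference of 1.28. ADAM19 differed by 1.42 and ADAM12 by −1.35, both membrane-bound metalloproteinases. MMP1, interstitial collagenase, read 2.70 and 5.03, so its difference began below the array median. Of the IGF axis, 11 genes passed with a median of −0.51. At least 2-fold lower were 2 of them (background 2.18%), IGFBP3 and IGFBP7, the latter at −1.18. IGFBP7 also differed by −1.03 in ES-2. The receptors IGF1R, IGF2R and INSR differed by 0.11, −0.65 and −0.51.

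The 10 passing mesenchymal genes had a median of 0.53, against −0.01 in ES-2 and −0.04 in OVCAR-3, with 4 at least 2-fold higher (background 2.69%) and 0 lower. SNAI2, a repressor of epithelial genes known as Slug, read 8.47 and 10.57, a difference of 2.10. TWIST2, another such factor, read 5.70 and 7.31. TAGLN, an actin-binding protein, differed by 1.28, S100A4 by 1.26 and VIM by 0.53. The related factor SNAI1 was the member below 0, at −0.48. FN1, counted among matrix genes, differed by −0.29 and read 5.04 and 4.75.

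Of 17 passing epithelial junction genes, 4 were at least 2-fold lower (background 2.18%) and 0 higher (2.69%), with a median of −0.23. Of the 4, 3 passed through the miR-blank array alone. Among the 12 genes at 5 or more on both arrays, CLDN1 was the 1 past 2-fold. CLDN1, a tight junction claudin, read 10.13 and 8.74. GRHL1, a factor of epithelial differentiation, read 5.43 and 4.02, TJP3 read 5.28 and 4.14, and CLDN4 read 5.25 and 4.23, all 3 ending near or under the array median. TJP1, DSP and OCLN differed by −0.53, −0.47 and −0.33, while CLDN3 differed by 0.50. Among 6 keratins, KRT7 differed by −1.53, and KRT8 and KRT18, the keratins of simple epithelia, by 0.62 and 0.59. EPCAM read 4.11 and 3.78 and did not pass. CDH1 and CDH2 were not analysed here.

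Some receptors and HOX genes were at least 2-fold higher. Of 10 passing receptors for peptides, proteases and lipids, 4 were at least 2-fold higher (background 2.69%) and 0 lower (2.18%), with a median of 0.70. Of the 10, 3 passed through the miR-135a-3p array alone, GRPR, GALR2 and NPR3, and so had to be higher. With at least 5 on both arrays the median was 0.111 over 7 genes, and 2 were past 2-fold. Beside NTSR1 and GRPR these were LPAR3, a receptor of lysophosphatidic acid, which read 7.03 and 8.38, and GALR2, a galanin receptor, at 1.24. In OVCAR-3, GALR2 differed by −0.84. HOX genes set position along the body axis. Of 20 that passed, 18 were above 0 (4674 of 8973 over all genes) and 4 were at least 2-fold higher (background 2.69%), with a median of 0.59 against −0.23 in ES-2 and −0.14 in OVCAR-3. HOXB2, HOXB4, HOXD13 and HOXC4 differed by 2.36, 2.12, 1.65 and 1.62. Of the 20, 5 passed on 1 array alone, and 3 of the 15 at 5 or more on both arrays were past 2-fold, with a median of 0.66. The 4 genes lie in 3 separate clusters, HOXB, HOXC and HOXD.

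Cadherin superfamily genes, which join cells through calcium-dependent contacts, held 4 higher and 2 lower genes among 18 (backgrounds 2.69% and 2.18%). At 5 or more on both arrays these were 3 and 1 of 16, as PCDHB4 and PCDH7 passed on 1 array alone. PCDHB4 and PCDHB3 of the protocadherin beta cluster differed by 2.16 and 1.67, PCDH18 by 1.53 and FAT4 by 1.44. PCDH7 and PCDH9 differed by −2.42 and −1.88. The beta cluster genes resemble each other closely, so their separate values are uncertain. Of 6 cancer-testis genes, 2 were at least 2-fold higher (background 2.69%), ACTL8 and SAGE1, but both passed through the array where they were high. With at least 5 on both arrays 3 genes were left, with a median of 0.0434 and 0 past 2-fold. The 6 passing genes of the GAGE family, which are nearly identical copies, differed by 1.15 to 1.4. Of 12 Mullerian and ovarian genes, 3 were at least 2-fold higher (background 2.69%). These were LHX1, at 1.77, the surface antigen MSLN, at 1.41, and WT1, at 1.0. PAX8 differed by −0.68.

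Cell cycle genes showed small differences. The 26 replication genes had a median of 0.21, with 19 above 0 and 0 past 2-fold. CDT1, a licensing factor, differed by 0.77, GINS3 by 0.86 and RRM2 by 0.69. The 33 mitotic genes had a median of −0.15, with 21 below 0 and 1 past 2-fold, the kinesin KIF20B at −1.05. Over all 8973 genes, 4674 were above 0 and 4298 below. The Ki-67 gene MKI67 differed by −0.45, and CCNB1 and CCNA2 by −0.04 and −0.00. Medians in the other lines were 0.00 and −0.17 for replication and 0.06 and 0.09 for mitosis.

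The remaining lists held few genes past 2-fold. BCL2, an inhibitor of apoptosis, read 5.07 and 6.56, a difference of 1.49. BBC3, which encodes the p53 target PUMA, differed by −1.02. TXNIP, an inhibitor of thioredoxin, read 6.58 and 8.41, with 0.77 in ES-2 and 0.32 in OVCAR-3. DDIT4, a stress-induced brake on mTOR, read 9.65 and 8.20. DKK1, a secreted Wnt antagonist and YAP target, read 5.11 and 6.98, while TEAD2 and FSTL1 differed by −1.40 and −1.62. INSIG1, a brake on sterol synthesis, differed by −1.21. Of 13 cholesterol genes, 11 were below 0 (4298 of 8973 over all genes), with a median of −0.12. Of 17 lysosomal genes, 2 were at least 2-fold higher (background 2.69%), CD68 and CTSS, but the median was −0.13. CTSS read 3.79 and 5.14, so it passed through the miR-135a-3p array alone and had to be higher. At 5 or more on both arrays, CD68 was the 1 of 15 past 2-fold. The 23 ribosomal protein genes had a median of 0.11, and the 8 respiratory chain genes 0.02, with 0 past 2-fold in either list. Over all lists, 529 of 694 named genes passed, and 47 of 50 lists held a passing gene.

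Among small RNA genes, 233 microRNA hairpin genes passed, with 8 at least 2-fold higher and 4 lower, against 2.69% and 2.18% of all genes. These counts are near the background. Besides MIR135A1, 5 of the 8 were hairpins of the MIR3689 family, chosen here after their values were seen. MIR3689B read 6.23 and 9.26, and MIR3689A, MIR3689D2, MIR3689E and MIR3689F differed by 2.39 to 2.97. MIR3689D1 differed by 0.67. On the arrays of the other lines these 5 hairpin genes read 7.26 to 9.57, so the SKOV-3 miR-blank array was the low one. The hairpins resemble each other closely, and their signals may not be separate.

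Other probe sets of a gene give a check that the choice of probe set did not use. Of the 437 genes past 2-fold, 16 had another probe set that passed, 29 such probe sets in all. Every one of the 29 had the sign of the chosen probe set, and 22 were past 2-fold. The GAGE genes were left out of this check. However, 12 of the 29 held the difference of the chosen probe set within 0.0001, at TNF, HCG4 and IFITM4P. The rest held 16 separate differences at 15 genes, of which 9 were past 2-fold. Probe sets of a gene share the same labelled RNA, so this shows the reading of the array and not its repeat.

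Differences in SKOV-3 also varied along the chromosomes. Protein-coding genes at least 5 on all 6 arrays, 6641 in number, were placed in 167 windows of about 40 neighbouring genes. Window medians ran from −0.436 to 0.420 in SKOV-3 with an SD of 0.131, from −0.331 to 0.204 in ES-2 with 0.104, and from −0.245 to 0.0589 in OVCAR-3 with 0.0516. In SKOV-3, 21 windows were at least 0.2 from 0, against 10 in ES-2 and 1 in OVCAR-3. This 0.2 was not scaled to the SD over single genes, which was 0.51 in SKOV-3, 0.32 in ES-2 and 0.30 in OVCAR-3. The lowest were neighbours on chromosome 6. From AMD1 to ADGRG6 the median was −0.436 with 35 of 40 genes below 0, and from AIG1 to CEP43 it was −0.425 with 33 of 40 below 0. The same windows had medians of −0.03 and 0.05 in ES-2. The highest was on chromosome 17, from RPH3AL to ZNF232, at 0.420 with 30 of 40 genes above 0, against −0.22 in ES-2. Further windows of chromosome 17 lay at 0.27 to 0.28, from NDEL1 to KSR1, from CA4 to USH1G and from AFMID to CCDC57. The window from AFMID to CCDC57 lay at −0.316 in ES-2. On chromosome 7 the windows from PDGFA to NUP42, from MALSU1 to SPDYE1 and from CLIP2 to BUD31 lay at −0.23, −0.286 and −0.24, and the median over the 418 genes of the chromosome that passed was −0.187. The last of these windows lay at −0.33 in ES-2. On chromosome 19 the window from PRKD2 to RRAS lay at −0.283.

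**Figure D5:**
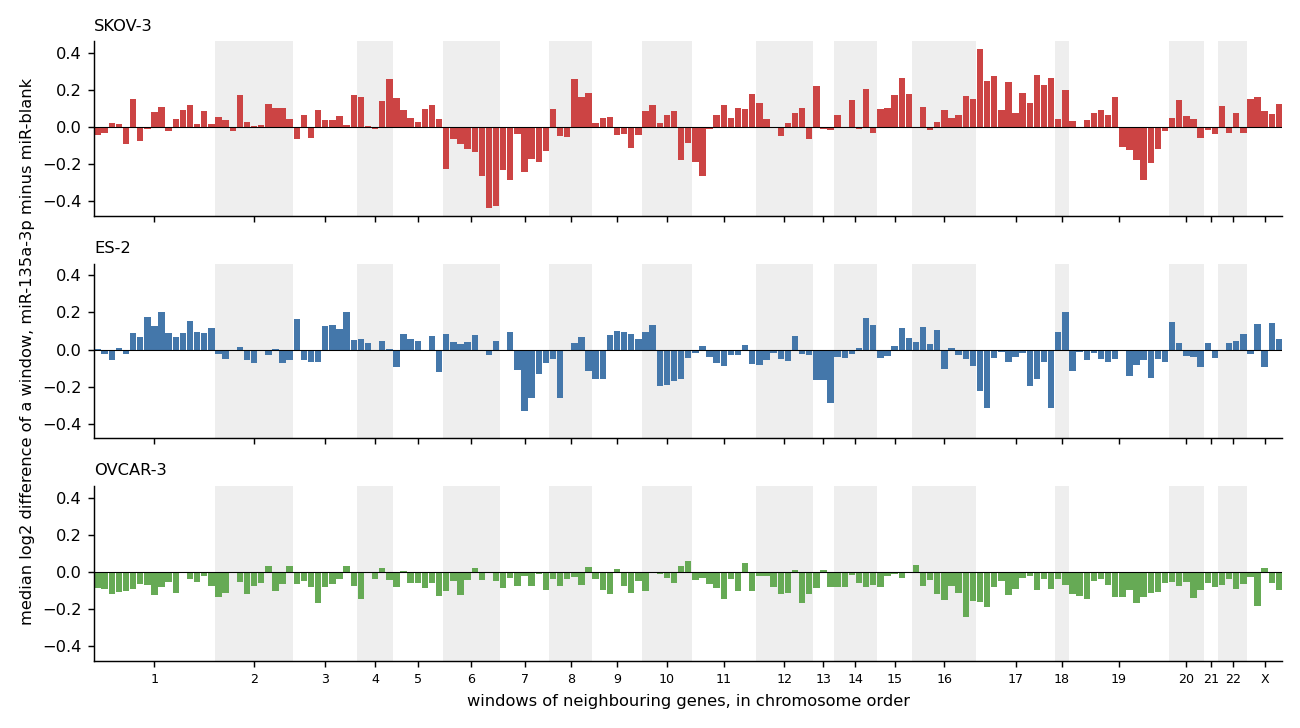
Median log2 difference, miR-135a-3p minus miR-blank (y axis), of 167 windows of neighbouring genes in chromosome order (x axis, chromosomes shaded in turn), 1 panel per line. SKOV-3 windows are low over the end of chromosome 6 (−0.436 at the lowest) and high over chromosome 17 (0.420 at the highest). ES-2 windows run from −0.331, on chromosome 7, to 0.204, and OVCAR-3 windows stay within −0.245 and 0.0589.

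Most genes past 2-fold stayed past it when the median of their neighbours was subtracted, but genes far past it had to. The subtracted medians lay between −0.545 and 0.424. With the median of the 41 nearest genes subtracted from each gene, 206 genes were at least 2-fold higher and 200 lower, and 361 of the original 437 remained. The AP-1 and EGR median was then −1.28, that of ERK feedback genes 0.83, that of mesenchymal genes 0.52, and that of HOX genes 0.53. DNA copy number was not measured, and the sources used here do not say whether the cells of both SKOV-3 arrays were of the same passage. With 1 array a side, any other difference between the cultures cannot be told apart from the microRNA.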

How the data were processed

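Total RNA from 6 samples was labelled with biotin and read on Affymetrix whole-transcript arrays, per the labels' protocols. The authors deposited a table of log2 signals for 53617 probe sets. The submitters' processing notes name Affymetrix Expression Console 1.4, Transcriptome Analysis Console 3.0 and RMA, with no role or order. RMA makes the array distributions equal, so a shift of most genes would be removed. Detection calls were not used here. Of the probe sets, 16098 had 1 gene symbol in the platform annotation, for 14884 symbols, and 37519 were unnamed here.

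Differences, counts past 2-fold, list medians and window medians were computed with pandas 2.3.3 and numpy 2.4.6, tested on simulated data. With 1 array per line and transfection, the number of arrays limits the precision, and no test was made. RefSeq gene and promoter tables of GRCh38.p14 gave biotypes, gene order and sequences. The rule for named genes took the 20 highest and 20 lowest protein-coding genes without the GAGE family. It added up to 8 members per list with the largest differences, all members of lists of at most 10 passing genes, the miR-135 hairpins, the ERBB2 neighbours and PAX8. The MIR3689 hairpins, IFITM4P and list members beyond these were picked with their values in view. The members and lists were chosen with earlier results of these data known. Alternatives were other filters on low signal, scalings and probe set choices. Added after seeing the data were the chromosome windows, protein-coding genes alone and the subtraction of the 41 nearest genes. Sites for the seed in transcripts were not analysed here.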

Additional observations from a re-analysis of the deposited data

Results flagged for a closer look

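Several genes were past 2-fold in SKOV-3 and past it with the opposite sign in another line. This difference was not tested, since each line had 1 pair of arrays. FOSL1 differed by 1.68 in SKOV-3 and by −1.14 in OVCAR-3, where it read 7.70 and 6.56. SPRY4 differed by 1.02 and by −1.01 in OVCAR-3, where it read 8.41 and 7.40. STC1 differed by 2.54 and by −1.58 in OVCAR-3, where it read 6.01 and 4.43. TIMP1 differed by 1.28 and by −2.28 in OVCAR-3, where it read 7.63 and 5.35. SPP1 differed by 2.48 and by −1.73 in ES-2, where it read 7.62 and 5.89. Also higher in SKOV-3 but past 2-fold lower elsewhere were STAC and TMT1B in ES-2, and GPR3 in OVCAR-3. Reversals occurred on the other side as well. Of the genes lower in SKOV-3, 4 were past 2-fold higher in ES-2, NAP1L3, ULBP2, ZNF429 and ZNF610. In OVCAR-3 there were 3, CPA4, LINC01139 and MYPN.

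Probe sets without a name here carried signal outside the gene counts. In SKOV-3, 303 of the 11026 unnamed probe sets that passed were at least 2-fold higher (2.75%) and 424 lower (3.85%). Among named genes the shares were 2.69% and 2.18%, so the higher share was near that of named genes. The counts were 72 and 227 of 11124 in ES-2 (0.647% and 2.04%, against 0.226% and 0.725% of named genes). In OVCAR-3 they were 150 and 225 of 11344 (1.32% and 1.98%, against 0.371% and 0.348%). The lower share thus exceeded that of named genes in each line, and the reason was not tested.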

How the results depend on the processing

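The counts of genes at least 2-fold higher (241) and lower (196) stayed within 1.5 times of these values under all 9 planned and 2 added alternatives, at 183 to 266 and 132 to 227. Of 430 recomputed list medians, 417 moved by less than the scatter of 0.31, the mean SD over genes of the other pairs. Signals of at least 6 gave −1.12 for chemokines and 1.0 for Mullerian genes. Without a filter the medians were −0.187 for the IGF axis, 0.154 for receptors, 0.102 for cancer-testis genes and −0.452 for complement genes. With at least 5 on both arrays they were 0.111 for receptors and 0.0434 for cancer-testis genes. Metallothioneins had 0.834 under 3 stricter filters, against 0.43. The keratin median of 0.38 reversed to −0.186 with a mean of at least 5 or a signal of at least 6. The mean over probe sets gave −1.74 for FOSB, −0.687 for IER3 and −1.18 for PCDH9. These changes follow from which genes or probe sets entered. No paired analysis was possible because the SKOV-3 comparison has 1 array a side. Low signals could not be told from background, so differences that begin or end under the array median have uncertain sizes.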
